A study of Homo sapiens with 2 samples.

Results

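The distal end of the long arm of chromosome 17 was examined in HCT116 cells, a line from a human colorectal carcinoma, as the expressed protein-coding genes from SEC14L1 to METRNL in GENCODE gene order on GRCh38. Of 104 protein-coding genes of that stretch, 103 had an identifier in the table of expected counts, and FASN, MRPL12 and EIF4A3 were left out by rule. Of the others, 79 had a mean of at least 1 CPM (counts scaled to the library total) over the libraries and were the members, and 21 were under that minimum, 8 of them at 0 counts in both libraries. The members were 79 of 11624 expressed protein-coding genes. The stretch was chosen by the ratios of its genes in this same comparison, which were low in the knockout library, so every ratio of a member is given as a description and was not tested.

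The wild-type library came from HCT116 cells with wild-type CREB1, which encodes a transcription factor activated by cAMP signalling. The knockout library came from HCT116 cells given the PX461 plasmid, which carries a nickase form of Cas9 and guide RNAs to CREB1, from which 1 clone lacking CREB1 was kept. The medium of both was DMEM with fetal bovine serum, and the labels name no other treatment. Each genotype had 1 library, made from total RNA after removal of ribosomal RNA with a strand-specific kit, so the knockout and whatever else distinguishes that clone cannot be told apart. The gene-level count of CREB1, at 614 (wild-type) and 499 (knockout), does not check the label, because such a count also holds RNA of an edited gene.

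The long arm of chromosome 17 ends in a gene-dense, GC-rich stretch whose genes have unrelated functions: they include enzymes, cell-cycle proteins, Polycomb proteins, a cytoplasmic actin and lysosomal hydrolases. Neighbouring genes share the number of DNA copies of their stretch and may share chromatin, while each is switched by its own promoter. RNA alone was measured here.

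CREB1 binds the cAMP response element, TGACGTCA, and more weakly its core, TGACG, so the promoters of the members were searched for both on either strand. Windows of 300 bases, 250 before and 50 after each transcription start listed by RefSeq (GRCh38.p14), were found for 58 of the 79 members, with 102 starts. The full element was in 0 of the 102 windows, against 2.26% of 22196 windows of all protein-coding genes and 2.90% of those of expressed genes. With shares this low, 0 of 102 windows does not set the members apart. The core was in 42 of the 102 (41.2%), against 27.9% of all windows and 32.2% of those of expressed genes. Of the 37 members with a single listed start, 12 had the core before it. The 3 of these 12 with the lowest and the 3 with the highest ratio are printed 5′ to 3′ on the gene's strand. These genes were picked by ratio, so their unlike ratios follow from that choice. The core, or its reverse complement CGTCA, is in capitals.
RAB40B: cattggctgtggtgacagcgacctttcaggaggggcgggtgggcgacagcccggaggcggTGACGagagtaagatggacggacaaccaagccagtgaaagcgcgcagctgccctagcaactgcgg
ASPSCR1: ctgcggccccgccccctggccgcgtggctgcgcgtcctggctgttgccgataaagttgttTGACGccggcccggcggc
FOXK2: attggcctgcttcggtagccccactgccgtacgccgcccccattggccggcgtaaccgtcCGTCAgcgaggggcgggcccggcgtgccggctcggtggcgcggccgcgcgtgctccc
GAA: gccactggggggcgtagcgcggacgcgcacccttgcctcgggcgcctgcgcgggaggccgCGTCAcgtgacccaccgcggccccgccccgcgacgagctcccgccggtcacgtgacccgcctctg
SECTM1: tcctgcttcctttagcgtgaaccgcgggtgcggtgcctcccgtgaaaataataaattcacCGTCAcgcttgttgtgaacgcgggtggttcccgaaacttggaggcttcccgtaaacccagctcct
CCDC40: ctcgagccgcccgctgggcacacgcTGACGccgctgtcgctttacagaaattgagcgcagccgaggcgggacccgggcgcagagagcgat

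The printed stretch of RAB40B is chr17:82698767-82698891 on the minus strand, and its core ends 128 bases before the start. That of ASPSCR1 is chr17:81977551-81977628 on the plus strand, with 13 bases between core and start. That of FOXK2 is chr17:82519615-82519731 on the plus strand, with 52 bases between them. These are the 3 with the lowest ratios, at log2 ratios of -0.96, -0.81 and -0.66, knockout over wild-type. The stretch of GAA is chr17:80101442-80101566 on the plus strand, with 74 bases between core and start. That of SECTM1 is chr17:82333836-82333960 on the minus strand, with 129 bases between them. That of CCDC40 is chr17:80036392-80036481 on the plus strand, with 220 bases between them. These 3 had log2 ratios of -0.01, 0.03 and 0.19.

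Among the 58 members with windows, the 32 with a core in any window had a median log2 ratio of -0.57 and the 26 without had -0.53. A match is a run of letters, not a site shown to be bound. The core lies inside the full element, as the letters ACGTG of the hypoxia response core lie inside the E-box CACGTG. The shorter run was in 39.2% of the members' windows, 23.05% of all windows and 25.5% of those of expressed genes, and the longer in 13.7%, 8.34% and 9.35%. In the same order, the SP1 box GGGCGG was in 77.5%, 56.3% and 68.0%, and the CCAAT box in 40.2%, 34.7% and 34.8%. The TATA box TATAAA was in 8.82%, 9.47% and 5.78%, so the members were below all windows and above those of expressed genes. The CHR element TTTGAA, known from promoters of mitotic genes, was in 7.84%, 12.4% and 10.1%. The median GC content of the members' windows was 69.8%, against 62.3% of all windows. Among the members with no matched window were TMC8, BIRC5, TIMP2, CANT1, C1QTNF1, CBX2, CBX8, TBC1D16, SGSH, SLC26A11, CHMP6, SIRT7, PYCR1, NOTUM, RAC3, CSNK1D, TEX19, WDR45B, FN3KRP and B3GNTL1.

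The libraries held 34511074 (wild-type) and 31178309 (knockout) expected counts, of which the members took 240026 (0.696%) and 165633 (0.531%). Of the epithelial markers, EPCAM, CDH1, KRT8, KRT18, KRT19 and CDX2 were present in both libraries, VIL1 had 12 and 9 counts, and CDX1 had 0. The leukocyte markers PTPRC and CD3E, the fibroblast marker COL1A2 and the islet marker INS were at 0 in both libraries, ALB had 1 and 1 counts, PDGFRB 5 and 2, VWF 17 and 17, and COL1A1 83 and 89. Levels below are CPM scaled between the libraries by the TMM method, ratios are knockout over wild-type, and each interval is an exact 95% interval of the ratio from the counts. These intervals cover counting error only, not the spread between cultures, clones or preparations.

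The distal 17q genes were lower as a group in the knockout library. Their median log2 ratio was -0.54, a level 1.45-fold lower, with quartiles of -0.81 and -0.35 and an SD across genes of 0.61. That SD includes C1QTNF1, at -4.85. Of the 79 members, 72 had a ratio below 0, against 48.7% of all expressed protein-coding genes, whose median was 0.01. At least 1.3-fold lower were 58 members and at least 1.3-fold higher 0, where 10.6% and 11.5% of all expressed protein-coding genes were. At least 2-fold lower were 10 members, C1QTNF1, RAC3, AATK, DCXR, AFMID, CENPX, PCYT2, PYCR1, TEX19 and ENGASE, and 0 were 2-fold higher, where 1.61% and 1.24% were. The counting interval lay wholly below 0 for 67 members, against 26.1% of all, included 0 for 10, and lay above 0 for RNF213 and RPTOR. These counts follow from how the stretch was chosen. In bulk RNA, fewer cells with a transcript and less of it in each cell cannot be told apart.

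**Figure D1:**
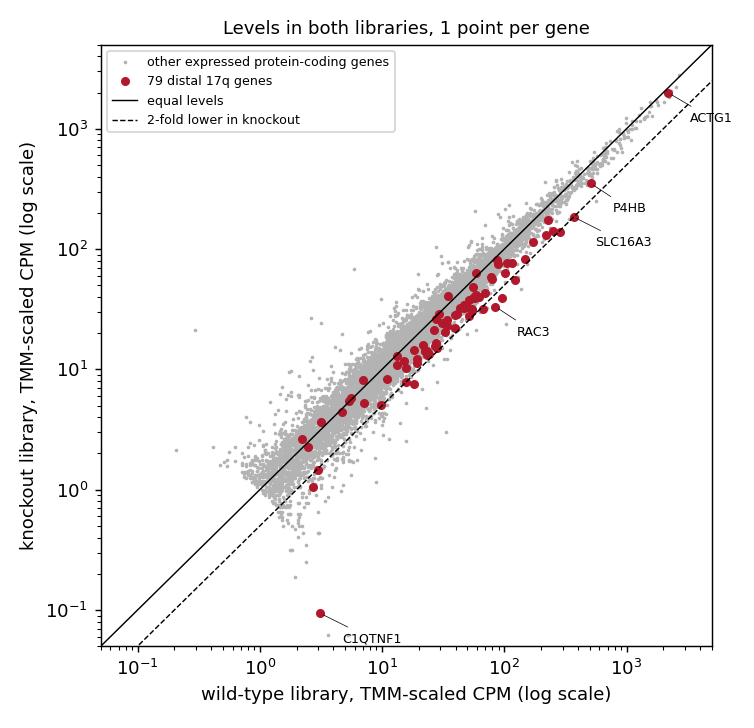
Level of each expressed protein-coding gene in the wild-type library (x axis, TMM-scaled CPM, log scale) and in the knockout library (y axis, same scale), with the 79 distal 17q genes in red and all others in grey. Most red points lie between the solid line of equal levels and the dashed line of a 2-fold lower level, and C1QTNF1, at 3.12 and 0.0938 CPM, lies far below both.

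The difference was spread over the members rather than carried by a few. The log2 ratios of 44 of the 79 lay between -0.9 and -0.4. Summed over the members, the scaled counts were lower by a log2 ratio of -0.46 (-0.47 to -0.45), and by -0.63 without ACTG1, which held 30.8% of the members' wild-type counts. Members were lower on both strands: the median was -0.56 for 37 genes on the plus strand and -0.53 for 42 on the minus strand.

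Across the 79 members, Spearman's rank correlation of the log2 ratio was 0.23 with exonic length, against 0.17 over all expressed protein-coding genes, and -0.03 with GC content and -0.11 with gene order. All points come from the same pair of libraries. Ranked by the wild-type level per kilobase of exon and divided into 4 bins, from lowest to highest, the median log2 ratios were -0.37, -0.52, -0.57 and -0.71. The members most abundant per kilobase thus had the lowest median of the 4 bins, but the wild-type level is itself a term of the ratio. The rank correlation of the log2 ratio was -0.20 with the wild-type CPM, -0.13 with the mean CPM before scaling and -0.03 with the knockout CPM. The order of the bins is therefore not read as a trend with abundance.

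The genes of cell division and DNA had the lowest median of the groups, and all 9 members were below 0, with a median log2 ratio of -0.80. CENPX, a histone-fold protein of the centromere that also binds the Fanconi anemia helicase FANCM, was at 122 CPM in the wild-type and 55.4 CPM in the knockout library, 2.20-fold lower (2.08 to 2.32). TK1, the cytosolic thymidine kinase of nucleotide salvage, was at 251 and 143 CPM, 1.76-fold lower (1.70 to 1.82). BIRC5, which encodes survivin of the chromosomal passenger complex, was at 147 and 83.1 CPM, 1.77-fold lower (1.69 to 1.85). The ratios of TK1 and BIRC5, which are neighbours in this stretch separated by AFMID, had overlapping intervals. ANAPC11, the RING subunit of the anaphase-promoting complex, was at 54.7 and 31.5 CPM, 1.74-fold lower (1.61 to 1.88). LRRC45, a linker protein of centrosomes, was at 54.7 and 30.6 CPM, 1.79-fold lower (1.66 to 1.94). SEPT9, a septin of the cytokinetic furrow, was at 172 and 115 CPM, 1.49-fold lower (1.43 to 1.56). The rest of this group were less abundant than SEPT9 per kilobase of exon. FAAP100, of the Fanconi anemia core complex, was at 39.2 and 28.2 CPM, CEP131, of centriolar satellites, at 26.6 and 21.5 CPM, and the nuclease ENDOV at 15.8 and 10.4 CPM.

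All 10 genes of metabolism and mitochondria were below 0, with a median log2 ratio of -0.78, and 4 of the 10 genes that were at least 2-fold lower belonged here. PYCR1, which makes proline in mitochondria, was at 287 CPM in the wild-type and 139 CPM in the knockout library, 2.07-fold lower (2.002 to 2.15). DCXR, which reduces L-xylulose and dicarbonyls, was at 96.4 and 39.3 CPM, 2.45-fold lower (2.30 to 2.62). PCYT2, an enzyme of phosphatidylethanolamine synthesis, was at 66.8 and 31.7 CPM, 2.11-fold lower (1.96 to 2.27). The fourth was AFMID, the arylformamidase of tryptophan breakdown, at 18.4 and 7.51 CPM and 2.45-fold lower (2.11 to 2.86). OXLD1, an oxidoreductase-like protein, was at 51.2 and 27.7 CPM, 1.85-fold lower (1.70 to 2.01), and its interval overlapped those of PYCR1 and PCYT2. NDUFAF8, an assembly factor of respiratory complex I, was at 57.4 and 41.0 CPM, and SLC25A10, the mitochondrial dicarboxylate carrier, at 78.1 and 59.0 CPM. FN3KRP, a ketosamine kinase, was at 19.4 and 12.1 CPM. PGS1, of cardiolipin synthesis, had the highest ratio of the group, at 30.8 and 24.3 CPM, 1.27-fold lower (1.15 to 1.39). CYBC1, a chaperone of cytochrome b558, was at 43.1 and 32.1 CPM.

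The 6 genes of chromatin and transcription were all at least 1.3-fold lower, with a median log2 ratio of -0.59. The Polycomb chromobox genes CBX2 and CBX8, which are neighbours, encode alternative readers of methylated histone H3 in Polycomb repressive complexes. CBX8 was at 32.6 CPM in the wild-type and 20.6 CPM in the knockout library, 1.58-fold lower (1.44 to 1.75). CBX2 was at 41.0 and 28.6 CPM, 1.43-fold lower (1.31 to 1.56). The intervals of CBX8 and CBX2 overlapped. FOXK2, a forkhead factor whose promoter stretch is printed above, was at 62.6 and 39.7 CPM, 1.58-fold lower (1.47 to 1.69). MAFG, a small MAF partner of NRF2, was at 47.3 and 34.1 CPM, and the deacetylase SIRT7 at 33.9 and 25.6 CPM.

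Of the 6 genes of RNA processing and translation, 5 were at least 1.3-fold lower, and the group's median log2 ratio was -0.59. ALYREF, an adaptor that hands mRNA to the export receptor, was at 218 CPM in the wild-type and 131 CPM in the knockout library, 1.67-fold lower (1.604 to 1.73). MCRIP1, a regulator of epithelial gene silencing downstream of MAP kinase, was at 24.2 and 13.5 CPM, 1.79-fold lower (1.59 to 2.01). USP36, a nucleolar deubiquitinase, was at 22.5 and 14.3 CPM, CCDC137 at 55.5 and 38.9 CPM, and DUS1L, a tRNA dihydrouridine synthase, at 80.1 and 56.3 CPM. TNRC6C, a GW182 protein of microRNA silencing and the third gene of the stretch, went the other way, at 6.92 and 8.19 CPM, a log2 ratio of 0.24 (-0.02 to 0.50). Its interval included 0.

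Among the 11 genes of the cytoskeleton and small GTPases, 9 were below 0 and the median log2 ratio was -0.44, and the spread was wide. RAC3, a Rac GTPase, was at 84.7 CPM in the wild-type and 33.2 CPM in the knockout library, 2.55-fold lower (2.38 to 2.74). ACTG1, cytoplasmic gamma actin and the most abundant member by far, was at 2197 and 1987 CPM, 1.11-fold lower (1.09 to 1.12). Their intervals were far apart, so genes of the same stretch and of related function differed beyond counting error. Per kilobase of exon, ACTG1 was at 734 and 664 CPM per kilobase, and the next member, ALYREF, at 139 and 83.2. ARHGDIA, which holds small GTPases in their inactive form, was at 55.8 and 48.0 CPM, 1.16-fold lower (1.09 to 1.24). RAB40B, a Rab GTPase with a core in its printed promoter stretch, was at 9.90 and 5.10 CPM, 1.94-fold lower (1.605 to 2.36). The membrane-bending protein BAIAP2 was at 34.1 and 23.1 CPM, the Rab regulator TBC1D16 at 58.9 and 41.4 CPM, and the tubulin cofactor TBCD at 51.9 and 37.9 CPM. The GTPase ARL16 was at 21.7 and 16.0 CPM and the ARF exchange factor CYTH1 at 18.1 and 14.4 CPM. The 2 members above 0 were rare transcripts known from other tissues: FSCN2, a fascin of the retina, at 2.20 and 2.66 CPM, and CCDC40, of the ciliary axoneme, at 3.18 and 3.63 CPM. Both had intervals that included 0.

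Of the 10 genes of membrane traffic and protein turnover, 9 were below 0, and the median log2 ratio was -0.53. SEC14L1, a lipid-binding protein and the first gene of the stretch, was at 23.3 CPM in the wild-type and 13.3 CPM in the knockout library, 1.76-fold lower (1.56 to 1.98). ASPSCR1, a tether of GLUT4 vesicles, was at 27.4 and 15.6 CPM, 1.75-fold lower (1.57 to 1.96). The autophagy protein WDR45B was at 102 and 63.5 CPM, 1.603-fold lower (1.52 to 1.69), and the vesicle protein SYNGR2 at 69.3 and 43.2 CPM, 1.602-fold lower (1.499 to 1.71). NPLOC4, a cofactor of the p97 segregase, and GPS1, of the COP9 signalosome, lay near the middle of all members, at 116 and 77.2 CPM and at 106 and 76.5 CPM. The ESCRT genes HGS, at 88.5 and 75.3 CPM, and CHMP6, at 13.2 and 10.8 CPM, and the AP-4 accessory protein TEPSIN, at 11.1 and 8.29 CPM, had smaller differences. RNF213, a very large ubiquitin ligase, was at 58.4 and 62.7 CPM, a log2 ratio of 0.10 (0.01 to 0.19). Corrected for GC content and length its log2 ratio was -0.13, so its direction depended on that correction.

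The 8 genes of the secretory pathway and lysosome were all below 0, with a median log2 ratio of -0.43, but the lysosomal enzymes among them were close to 0. P4HB, a protein disulfide isomerase that is also a subunit of collagen prolyl hydroxylase, was at 508 CPM in the wild-type and 352 CPM in the knockout library, 1.44-fold lower (1.41 to 1.48). ENGASE, a cytosolic glycosidase, was at 15.8 and 7.88 CPM, 2.004-fold lower (1.72 to 2.34). RFNG, which glycosylates Notch, was at 23.3 and 14.2 CPM, 1.64-fold lower (1.46 to 1.85). CANT1, a nucleotidase of the Golgi, was at 46.9 and 34.4 CPM, and B3GNTL1 at 7.07 and 5.28 CPM. The lysosomal acid glucosidase GAA, at 29.01 and 28.9 CPM, the lysosomal sulfamidase SGSH, at 4.70 and 4.41 CPM, and the hexosaminidase HEXDC, at 13.3 and 13.01 CPM, had intervals that included 0. Their log2 ratios were -0.01 (-0.14 to 0.13), -0.09 (-0.43 to 0.25) and -0.03 (-0.23 to 0.17). Scaled by total counts in place of TMM, GAA was at 0.07 and HEXDC at 0.04.

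Among the 10 genes of signalling and secreted factors, 8 were below 0, and the median log2 ratio was -0.53. C1QTNF1, a secreted protein with a C1q domain, had 105 wild-type and 3 knockout counts, which correspond to 3.12 and 0.0938 CPM. Its ratio was 28.8-fold lower with a wide counting interval (11.1 to 164), and no other member came near it. AATK, an apoptosis-associated kinase, had 91 and 34 counts, 2.52-fold lower (1.70 to 3.89). SOCS3, an inhibitor of cytokine receptor signalling, was at 27.5 and 16.5 CPM, 1.66-fold lower (1.49 to 1.85), and TIMP2, an inhibitor of matrix metalloproteinases, at 19.2 and 11.4 CPM, 1.69-fold lower (1.48 to 1.93). METRNL, a secreted protein and the last gene of the stretch, was at 22.4 and 14.1 CPM, 1.59-fold lower (1.41 to 1.79). Both ends of the stretch thus held genes that were lower. LGALS3BP, which binds galectins, was at 229 and 174 CPM, 1.31-fold lower (1.27 to 1.36), and NOTUM, which inactivates Wnt ligands, at 15.0 and 11.7 CPM, 1.29-fold lower (1.13 to 1.48). The kinase CSNK1D, at 27.7 and 26.3 CPM, and SECTM1, a ligand of CD7, at 5.32 and 5.44 CPM, had intervals that included 0, and with total counts CSNK1D was at 0.00. RPTOR, the subunit that defines mTORC1, was higher in the knockout library, at 34.4 and 40.4 CPM, a log2 ratio of 0.23 (0.12 to 0.35).

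The 5 genes of transport across membranes had the highest median of the groups, -0.11, with 4 below 0. SLC16A3, which exports lactate, was at 370 CPM in the wild-type and 185 CPM in the knockout library, 1.999-fold lower (1.94 to 2.06), just short of the 2-fold limit. TMC6, a transmembrane channel-like protein, was at 57.9 and 39.0 CPM, 1.48-fold lower (1.38 to 1.59). Its neighbour and partner protein TMC8, which lies on the opposite strand and overlaps it, was at 2.47 and 2.28 CPM, with an interval that included 0. SLC38A10 was at 86.4 and 81.3 CPM, 1.06-fold lower (1.01 to 1.12), and SLC26A11 at 5.62 and 5.82 CPM. The 4 members placed in no group, TEX19, NARF, OGFOD3 and CCDC57, were all at least 1.3-fold lower: TEX19 had 101 and 47 counts, and the others were at 39.6 and 22.1, 49.99 and 32.9, and 47.2 and 32.5 CPM.

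**Figure D2:**
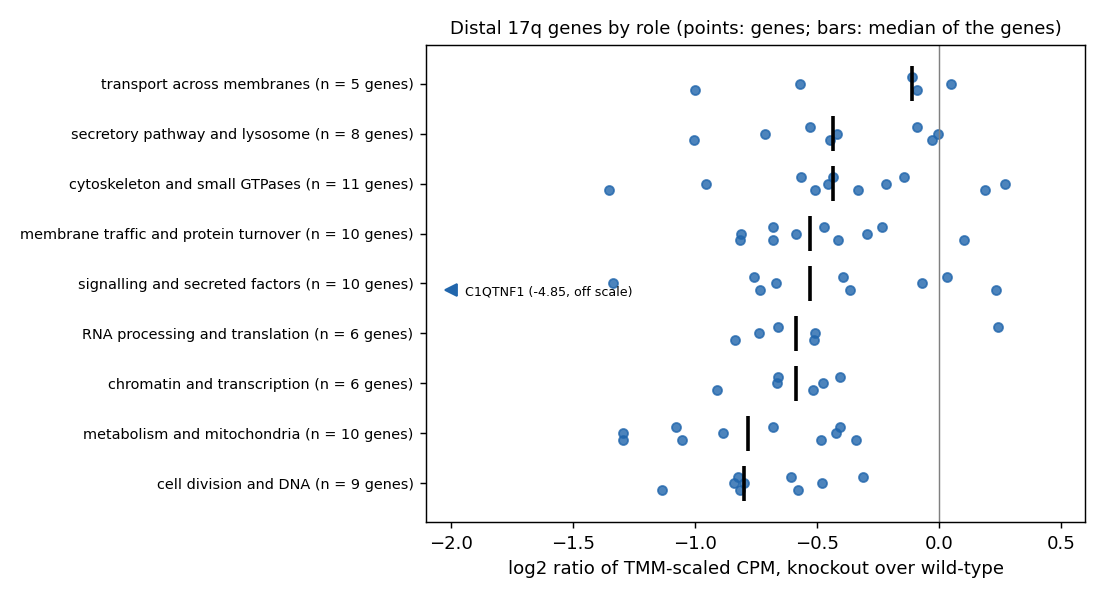
Log2 ratio of TMM-scaled CPM, knockout over wild-type (x axis), of 75 distal 17q genes by role (y axis), with 1 point per gene and a black bar at the median of each group; the 4 members with no role are not drawn. The medians run from -0.80 for cell division and DNA to -0.11 for transport across membranes, and C1QTNF1, at -4.85, is off the scale.

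Many members encode parts of complexes or pathways whose other genes lie outside the stretch, and their values are set beside those of the members here. For 16 such complexes or pathways, 123 partner genes were listed, and 121 of them were expressed. Their median log2 ratio was 0.05, with 51 of 121 below 0, 0 at least 2-fold lower and 4 at least 1.3-fold lower. Of 22 members compared in these lists, 21 were below the median of their partners and 14 were below every partner. These counts follow in part from the choice of the members, whose ratios were low, and are a description. The exception to the first count was RPTOR, whose log2 ratio of 0.23 lay above the mTORC1 partners' median of 0.05.

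In the proline pathway, PYCR1 had a log2 ratio of -1.05, and its partners PYCR3 0.09 and ALDH18A1 -0.00. Among the 13 partners of ANAPC11 (-0.80) in the anaphase-promoting complex, ratios ran from -0.22 for CDC26 to 0.21 for CDC16. For TK1 (-0.81), the 6 partners in thymidylate supply ran from -0.18 for DTYMK to 0.14 for TK2. In these 3 sets every partner was nearer to 0 than the member of the stretch. The 14 partners of CBX2 and CBX8 ran from -0.31 for BMI1 to 0.61 for PHC2, and CBX6, a chromobox gene of chromosome 22, was at 0.48. The 9 partners of ALYREF (-0.74) in mRNA export ran from -0.25 for NXT1 to 0.19 for THOC5. The 8 other COP9 signalosome genes ran from -0.24 for COPS8 to 0.09 for COPS5, against -0.47 for GPS1. For P4HB (-0.53) the lowest partner was P4HA1 at -0.28, for NPLOC4 (-0.58) it was UFD1 at -0.17, and for TBCD (-0.45) TBCA at -0.24.

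Some partners were lower too. AURKB, the kinase of the passenger complex, had a log2 ratio of -0.60 beside -0.82 for BIRC5, while CDCA8 was at 0.07. SLC16A1, another lactate transporter, was at -0.40 beside -0.999 for SLC16A3, and their chaperone BSG was at 0.02. FANCE was at -0.56, below FAAP100 at -0.48, whereas CENPX at -1.13 was below all 11 partners. CHMP4A was at -0.59, below HGS at -0.23 and CHMP6 at -0.29. Among the genes of actin and small GTPases, RHOA was at -0.32, below ACTG1 at -0.15 and ARHGDIA at -0.22, and ACTB, the other cytoplasmic actin, was at 0.15. The lysosomal hydrolases outside the stretch had a median of 0.24, and NAGLU, at 1.13, was the only partner at least 2-fold higher. GAA and SGSH, which were close to 0, had 4 and 3 of these 14 partners below them.

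**Figure D3:**
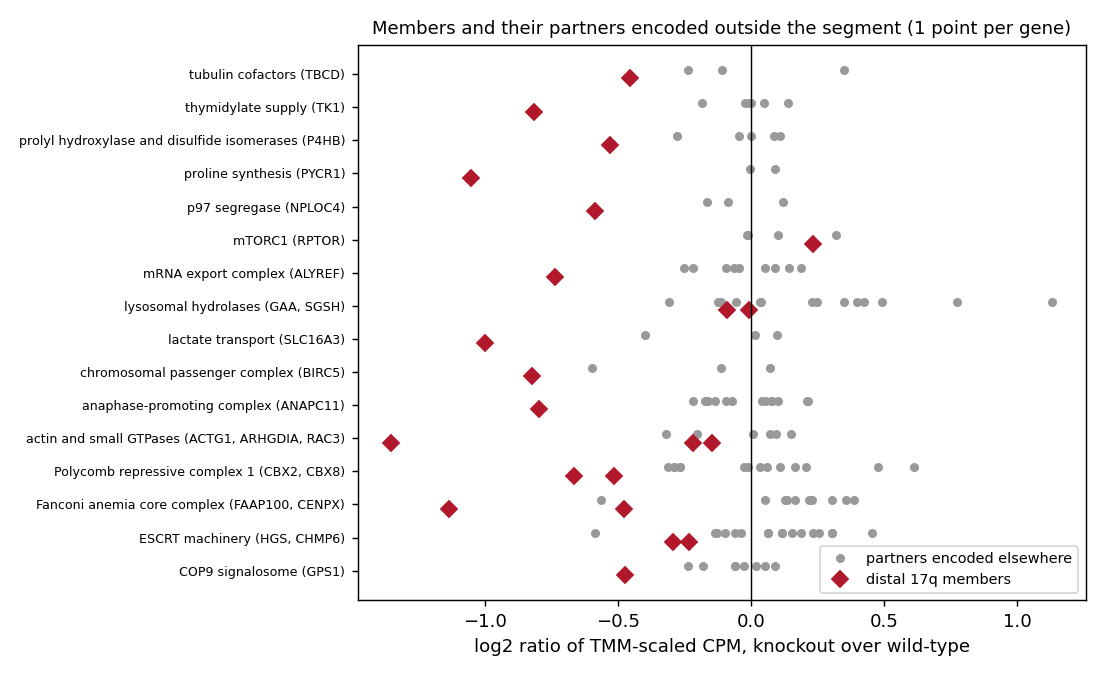
Log2 ratio of TMM-scaled CPM, knockout over wild-type (x axis), of members (red diamonds) and of partner genes encoded outside the stretch (grey points) in 16 complexes or pathways (y axis). In most lists the red diamonds lie left of all grey points, and RPTOR, at 0.23, is the only diamond to the right of its partners' median.

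The start of the stretch was set at SEC14L1 from these same ratios, so a step there follows from the choice. The 6 expressed protein-coding genes just before SEC14L1 were MXRA7 at -0.19, JMJD6 at 0.31, METTL23 at 0.27, SRSF2 at 0.27, MFSD11 at 0.31 and MGAT5B at 0.34 (log2 ratios). Of these, SRSF2, a splicing factor, was the most abundant in CPM, at 237 (wild-type) and 285 (knockout). The first 5 members were SEC14L1 at -0.81, SEPT9 at -0.58, TNRC6C at 0.24, TMC6 at -0.57 and TMC8 at -0.11, the intervals of TNRC6C and TMC8 including 0. Over the 20 genes before SEC14L1 the median was 0.30 with 4 below 0, and over the first 20 members it was -0.66 with 19 below 0. Over the 79 genes before SEC14L1 the median was 0.08 with 31 below 0. The long arm from WSB1 to that point (408 genes) had a median of 0.05, and the short arm (211 genes) -0.00. The long arm was not even there: in runs of 20 genes up to UBE2O, medians went from -0.09 (WSB1 to RPL23A) to 0.38 (MRPL10 to ATP5MC1). No protein-coding gene follows METRNL in the annotation, and the last 20 members had a median of -0.63.

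**Figure D4:**
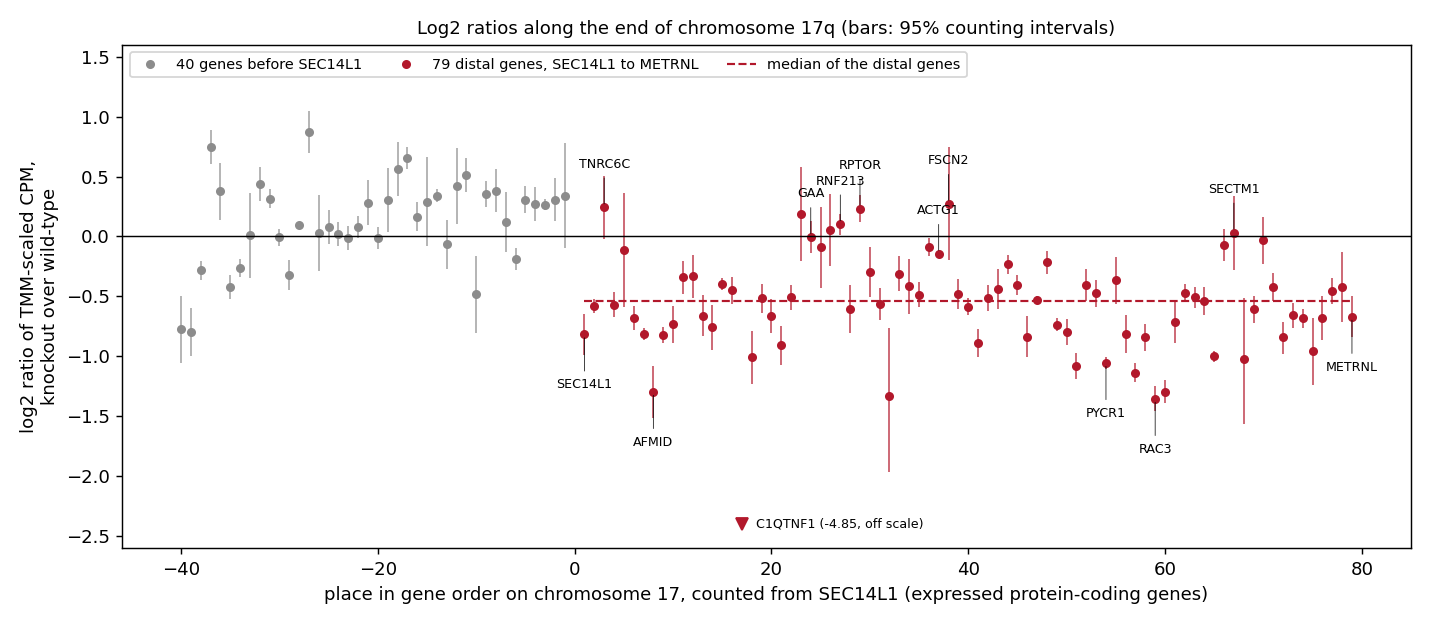
Log2 ratio of TMM-scaled CPM, knockout over wild-type (y axis), of 40 genes before SEC14L1 (grey) and of the 79 members (red) in gene order (x axis, place counted from SEC14L1), with 95% counting intervals as bars and the members' median of -0.54 as a dashed line. Points left of SEC14L1 scatter around and above 0, those from SEC14L1 on lie mostly below it, and the genes from CCDC40 to RPTOR lie near 0 except ENDOV.

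The stretch was not even. Divided into 9 runs of 8 or 9 members in gene order, the medians were -0.68 from SEC14L1 to BIRC5, -0.66 from SOCS3 to ENGASE, -0.09 from CBX2 to RNF213, -0.42 from ENDOV to SLC38A10, and -0.44 from ACTG1 to SLC25A10. They went on with -0.74 from MCRIP1 to PYCR1, -0.81 from NOTUM to DUS1L, -0.48 from CCDC57 to CYBC1 and -0.67 from NARF to METRNL. The run from CBX2 to RNF213 held the highest median, and within it CCDC40, GAA, SGSH, SLC26A11 and RNF213, which follow each other, lay between -0.09 and 0.19. Next to them TBC1D16, at -0.51, and ENDOV, at -0.60, were lower. Of the 7 members above 0, 4 (CCDC40, SLC26A11, RNF213 and RPTOR) lay between TBC1D16 and CHMP6. The unbroken rows of members below 0 were FAAP100 to CSNK1D with 28 genes, TMC6 to TBC1D16 with 19 and TEX19 to METRNL with 12. The longest such row elsewhere in the genome was GAS7 to CDRT4 on the short arm of the same chromosome, with 12 genes.

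The ends of other chromosomes served for comparison, each taken as its last 79 expressed protein-coding genes. Chromosomes 21 and Y, with 101 and 1 such genes, were left out as too small. Their median log2 ratios over all these genes were 0.01 and -8.69, the latter from 1 gene. The medians of the 21 other ends ran from -0.07 on chromosome 18 to 0.10 on chromosome 2. Between 35.4% and 63.3% of their genes were below 0, and 2 to 14 genes of each were at least 1.3-fold lower, against 58 here. The ends of chromosomes 9 and 8 had median exonic GC contents of 61.7% and 63.3%, close to the 61.0% of the members, and medians of -0.02 and 0.05. No test was made, because the stretch was chosen for its difference and each genotype had 1 library.

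**Figure D5:**
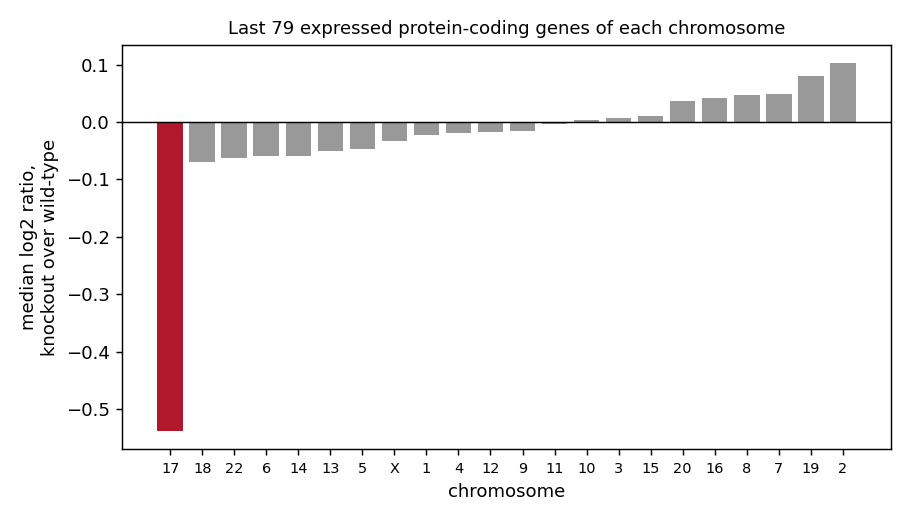
Median log2 ratio of TMM-scaled CPM, knockout over wild-type (y axis), of the last 79 expressed protein-coding genes of each chromosome except 21 and Y (x axis, ordered by median). The end of chromosome 17, in red, is at -0.54 and the 21 others, in grey, lie between -0.07 and 0.10.

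Non-coding genes of the stretch had played no part in its choice, although they share its libraries and scaling. MAFG-DT, AC139530.1 and AC145207.3 are annotated as antisense genes. Whether the counting used strand is not stated, so counts of such genes may hold reads of members. Of 111, 8 reached a mean of 1 CPM, with a median log2 ratio of -0.57 and 6 below 0. Over 983 expressed non-coding genes the median was -0.00 and 50.5% were below 0. MAFG-DT had 196 wild-type and 92 knockout counts, 2.02-fold lower (1.57 to 2.62). AC139530.1 had 194 and 97 counts, 1.90-fold lower (1.48 to 2.45), and AC145207.3 had 93 and 42, 2.09-fold lower (1.45 to 3.11). BAIAP2-DT had 516 and 380 counts, 1.29-fold lower (1.13 to 1.48). The intervals of AC145207.5, with 234 and 199 counts, and TNRC6C-AS1, with 89 and 109, included 0. TNRC6C-AS1, at a log2 ratio of 0.36, and TNRC6C, the coding gene it is named for, at 0.24, were both above 0.

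Of the 79 members, 51 overlap a gene on the opposite strand, 28 of them a protein-coding one, such as OXLD1 with CCDC137 or CENPX with LRRC45. The share over all expressed protein-coding genes was not counted, so this is not given as a trait of the stretch. The libraries were strand-specific, but whether the counting used strand is not stated in the sources used here, so reads of such pairs may not be told apart. The median log2 ratio was -0.54 for the 51 overlapping members and -0.59 for the 28 others. SEC14L1, TMC6 and MCRIP1 had fractional expected counts in both libraries, and TIMP2, CYBC1 and ACTG1 in the knockout library only. This happens where reads are divided among genes. Without these 6 the median was -0.53.

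The minimum level set who was a member. Just inside it were C1QTNF1, with a mean of 1.57 CPM before scaling, and AATK, with 1.86 CPM. Just outside were TSPAN10, with 0.773 CPM and 29 and 22 counts, and DNAH17, with 0.702 CPM and 23 and 23 counts. C1QTNF1 passed only through the wild-type library, and a gene that does so has to differ. With every gene of the stretch that had at least 1 count, 92 in all, the median was -0.52.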

How the data were processed

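RNA was measured in 1 wild-type and 1 CREB1 knockout library. The authors deposited expected counts per gene, estimates of reads that need not be whole, not scaled between libraries. Tools named in the submitters' processing notes are cutadapt 2.0, STAR 2.4.2a and RSEM 1.2.26, with build hg19. The sources used here do not state the annotation, the filters or the strand setting. Of 57820 identifiers, 52338 (90.5%) matched GENCODE release 29 (GRCh38), which gave names, gene order, exonic length and GC content. Unmatched identifiers, with 37.0% (wild-type) and 35.2% (knockout) of counts, remained in the totals.

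Expected counts were rounded, scaled by TMM (edgeR 4.0.16, R 4.3.3), and log2 ratios taken with a prior count of 0.5. Exact Clopper-Pearson 95% intervals come from the binomial split of the counts. They treat reads as independent molecules. A gene counted as 2-fold or 1.3-fold different when its ratio reached that size and its interval excluded 0. With 1 library per genotype no test was made. The calling was tested on simulated data. These held counting error only, with no spread between cultures or clones. Alternatives were total counts, DESeq2 1.42.0 size factors, other filters and prior counts, a quadratic correction for GC content and length, and leaving out the 5 highest genes or members with fractional counts.

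Named were the 12 lowest and 12 highest members, the 10 most abundant per kilobase, up to 8 per role by mean CPM, genes next to the stretch and to the minimum, the 6 highest non-coding genes and the 3 partners of largest ratio per list. CHMP6, TEPSIN, FN3KRP, ENDOV, NARF, OGFOD3 and CCDC57 were added with their values known, to account for members that the rule did not select. The members, roles and partner lists were chosen with earlier results of these data known. Some genes that the naming rule selects are not reported here.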

Additional observations from a re-analysis of the deposited data

How the results depend on the processing

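The counts of members 2-fold lower ran from 7 to 12, 1.3-fold lower from 50 to 60 and below 0 from 66 to 78 over the settings tried, all within 1.5 times the values reported, although the number of genes in the stretch ran from 72 to 92 with the filter. The median log2 ratio of the members was -0.46 with total counts in place of TMM, -0.56 with DESeq2 size factors, -0.52 without a filter, -0.55 with a mean CPM of at least 5, -0.62 after correction for GC content and length, and -0.60 as a mean in place of a median. Each differed from -0.54 by more than 0.00904, the distance from the middle of the counting interval of the members' sum to its ends. That distance is not an error of a median over genes. Against TMM, total counts shifted log2 ratios of all genes by about 0.07 and DESeq2 size factors by about -0.02. The mean includes C1QTNF1, at -4.85, and a single extreme value pulls a mean more than a median. For the remaining settings the cause was not tested. Total counts moved the median of all expressed protein-coding genes from 0.01 to 0.08, so the members' median relative to it changed little. A prior count of 2 and leaving out the 5 highest genes left the median at -0.54, and members with whole counts gave -0.53.

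Alternatives for single members, for the rest of chromosome 17 and for the partners were chosen after seeing the data. GAA, CSNK1D and HEXDC changed sign with total counts and RNF213 with the correction for GC content and length, and no other member changed sign under the 5 settings run on single members. With a prior count of 2 the log2 ratio of C1QTNF1 was -4.36 in place of -4.85. The median of the partners was 0.12 with total counts and 0.03 with DESeq2 size factors. No paired analysis was possible because each genotype had 1 library. With no replicates, no value here has an error between cultures. Depth limits the rare members most: the intervals of FSCN2, CCDC40, TMC8, SGSH, SLC26A11 and SECTM1 included 0, and that of TMC8 also included the members' median.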
